A study of Drosophila melanogaster with 10 samples.

Results

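The proteasome subunit genes were followed across 5 genotypes of the developing fly eye. Genes were taken as members if a probe set of the array was annotated with a single gene symbol beginning with Rpn, Rpt, Prosalpha or Prosbeta and a digit. This gave 40 of the 11982 genes with a single-gene probe set, each represented by 1 probe set. Of these, 26 encode subunits of the general proteasome and 14 are duplicated paralogs, recognised by the ending R or T of their symbol with or without a digit. The 26 subunits comprise 7 of the 8 lid subunits listed, 3 of 4 base subunits that are not ATPases, 4 of 6 base ATPases, and 6 of 7 subunits in each of the alpha and beta rings. Rpn9, Rpn10, Rpt1, Rpt6 and Prosbeta1 met no probe set under the rule and were not analysed here. Neither was Prosalpha1, whose probe set also names Prosalpha1R.

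The proteasome degrades proteins that carry ubiquitin chains. Its core particle is a barrel of 2 outer alpha rings and 2 inner beta rings, and the proteolytic sites lie on the subunits beta 1, 2 and 5, inside the barrel. The regulatory particle caps the barrel. Its lid removes ubiquitin through Rpn11, and its base binds ubiquitinated proteins and unfolds them with a ring of Rpt ATPases. Many of the duplicated paralogs of fly subunit genes are known from the male germ line. In flies and mammals a cap'n'collar transcription factor can raise many subunit genes together when proteasome activity is short.

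Eye-antenna imaginal discs of Drosophila melanogaster, the larval epithelia of the future eye, antenna and head capsule, were dissected 96 h after egg laying, with 20 to 30 discs pooled per sample, and profiled on 1-colour Affymetrix arrays. In every genotype ey-Gal4, a driver active where the eyeless gene is expressed, switched on UAS transgenes, so cells outside that domain were also in the samples. The controls were ey-Gal4/UAS-GFP (GFP), and the other groups were ey-Gal4/UAS-COX7a-RNAi (COX7a RNAi), ey-Gal4, UAS-Delta/UAS-GFP (Delta), ey-Gal4, UAS-Delta/UAS-COX7a-RNAi (Delta with COX7a RNAi) and ey-Gal4/UAS-Notch[intra2] (Notch intra). Each genotype had 2 biological replicates, 10 arrays in all, and 1 hairpin line (v106661) was used for COX7a, which encodes a subunit of cytochrome c oxidase. The hairpin and Notch[intra2] took the place of UAS-GFP, so those discs also lacked GFP. Both groups with Delta carried 2 UAS transgenes and the other groups 1. Delta is a ligand of Notch, and Notch intra is an intracellular form of the receptor.

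The labels were checked first. COX7A read 13.41 and 13.32 log2 units on the GFP arrays, 10.50 and 10.54 with COX7a RNAi, and 10.88 and 11.20 with Delta and COX7a RNAi. Delta read 11.20 and 11.16 in GFP, 13.06 and 13.22 in Delta, and 13.26 and 12.72 in Delta with COX7a RNAi. Both followed the labels. All 9 measured markers of the eye-antenna disc lay above the floor used for testing (4.66 log2 units), and all 6 testis germ line markers (bam, vas, can, aly, sa and dj) had means at or under it. Muscle, tracheal and glial markers stood lower in Notch intra, with 2 of 4, 2 of 4 and 2 of 3 called against GFP. Their summed linear signal was 699 and 756 for muscle (GFP 2339 and 1939), 7003 and 7788 for trachea (GFP 16642 and 16011), and 1374 and 1213 for glia (GFP 1922 and 1741). Tracheal markers were also called lower with COX7a RNAi (2 of 4) and with Delta and COX7a RNAi against GFP (3 of 4). Eye-antenna disc markers had 2 of 9 called higher and 4 lower in Notch intra against GFP, and 3 higher and 3 lower in Notch intra against Delta. They had 3 of 9 called lower in Delta with COX7a RNAi against GFP and 1 of 9 in Delta against GFP. Neuron, hemocyte and fat body markers had 0 called in any comparison. The part of these markers in the values below was not tested. Because discs are mixed tissue, fewer cells of a type and less RNA per cell cannot be told apart.

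No proteasome subunit gene passed the test in any of 7 comparisons between genotypes. The test was limma over all 8702 genes that lay above the floor on at least 2 arrays, with calls at a Benjamini-Hochberg adjusted p under 0.05. All 26 subunit genes lay above the floor on all 10 arrays, and 5 of the 14 paralogs passed the filter, so 31 members were tested. The background differed widely. Calls made up 4.53% of all genes for COX7a RNAi against GFP, 2.38% for Delta against GFP and 13.1% for Notch intra against GFP. They made up 3.75% for Delta with COX7a RNAi against Delta, 7.56% for the same discs against GFP, 9.55% for Notch intra against Delta and 0.575% for the interaction. The interaction asks whether COX7a RNAi acts differently in discs with Delta. At an unadjusted p under 0.05 the members counted 0, 1, 2, 0, 4, 2 and 0 in this order, beside 16.7%, 14.5%, 28.4%, 17.2%, 22%, 24.6% and 10.5% of all genes. Alternatives in the processing called between 0 and 3 members in a comparison, and those calls are named below.

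**Figure D1:**
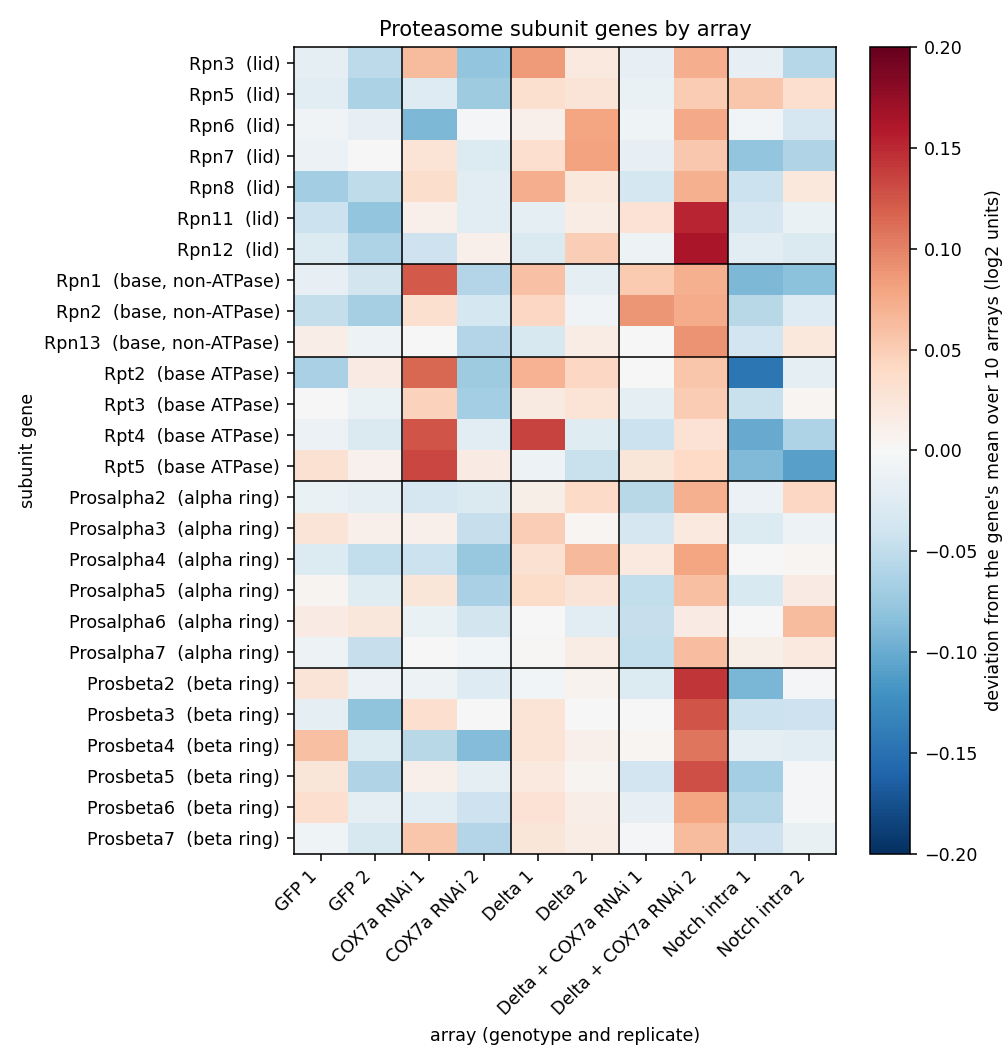
Deviation of each of the 26 subunit genes (rows, grouped by their place in the complex) from its own mean over the 10 arrays (columns), in log2 units as colour. Replicate 2 of Delta with COX7a RNAi is above the mean for all 26 genes, and replicate 1 of Notch intra is below it for 24 of 26. Of all 8702 genes tested, 4340 and 4546 are above their own mean on these 2 arrays.

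The general subunits were among the steadier genes of these arrays. The standard deviation (SD) over all 10 arrays ran from 0.030 log2 units for Prosalpha3 to 0.077 for Rpt2, with a median of 0.051. The median was 0.11 over all genes tested, and 0.082 over the 884 other genes whose mean signal lay in the range of the subunits (11.17 to 13.03 log2 units). No test was made of this difference. Alpha ring genes had a median SD of 0.036, beta ring genes of 0.056, lid genes of 0.051 and the 4 ATPase genes of 0.073. For the subunits the median SD between genotype means was 0.040, and the median residual SD between replicates was 0.044. In the same order the medians were 0.070 and 0.060 over the 884 genes of like signal, and 0.091 and 0.080 over all genes. Both medians were thus lowest for the subunits. The first SD is of means over replicates and the second of single arrays, and a mean varies less than a single array. Whether genotypes differed more than replicates therefore cannot be read from setting these SDs side by side. The distance between the highest and lowest array was under 0.5 log2 units for 100% of the subunits, 86.5% of the genes of like signal and 73.9% of all genes.

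**Figure D2:**
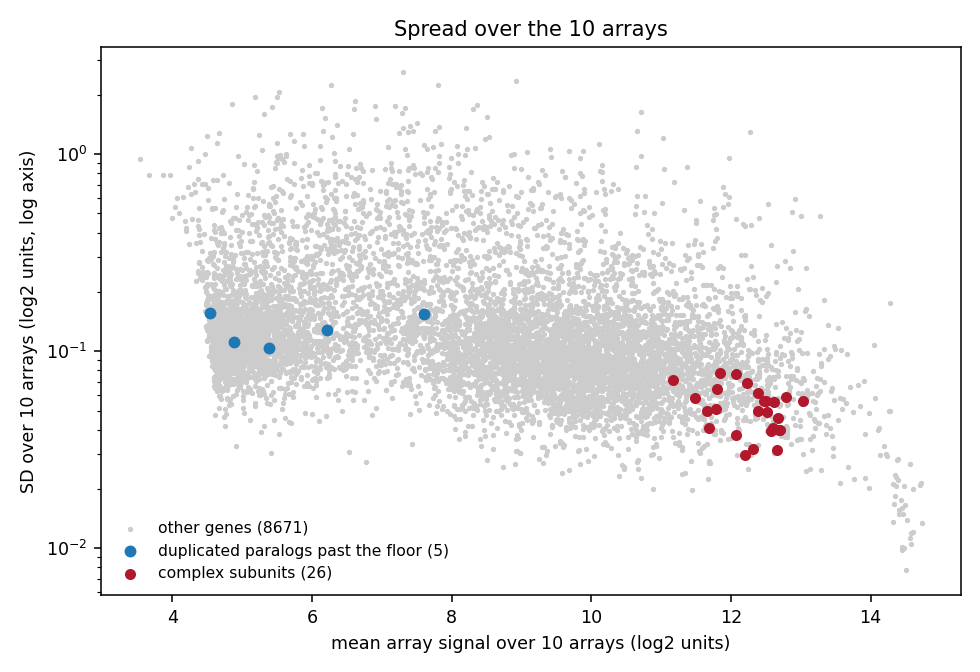
SD over the 10 arrays (log axis, log2 units) against the mean array signal (log2 units) for every tested gene. The 26 subunit genes (red) have SDs of 0.030 to 0.077, and the 5 tested paralogs (blue) of 0.10 to 0.16.

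The small deviations were shared between subunits, and replicates differed most in the genotypes with COX7a RNAi, for the subunits and for all genes. In Delta with COX7a RNAi 25 of 26 subunit genes were higher in replicate 2 than in replicate 1, by a median of 0.087 log2 units. Replicate 2 was the highest of all 10 arrays for 14 of the 26 genes. With COX7a RNAi alone 23 of 26 were higher in replicate 1 (median 0.050), and replicate 2 was the lowest array for 9 of them. In GFP 22 of 26 were higher in replicate 1 (median 0.023), and in Notch intra 20 of 26 were higher in replicate 2 (median 0.023). In Delta 16 of 26 were higher in replicate 1 (median 0.012). The median size of the difference, whatever its sign, was 0.030 there, beside 0.023 in GFP and 0.029 in Notch intra. Over all genes tested this size was 0.097 with COX7a RNAi alone and 0.099 in Delta with COX7a RNAi. It was 0.062 in GFP, 0.076 in Delta and 0.073 in Notch intra, so the larger differences were not particular to the subunits. Of all 8702 genes tested, 4432, 4135, 4523, 4323 and 4430 were higher in the same replicate, in the order of genotypes given here. How many of all genes had their highest or lowest value on each array was not counted. The largest subunit median between replicates, 0.087, exceeds every subunit median between genotypes given below, and its cause was not tested. Those in GFP, Delta and Notch intra were smaller in size than the deposited subunit medians of Delta against GFP (0.044) and Notch intra against Delta (-0.0475).

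Across the 10 arrays the median Pearson's r between pairs of subunit genes was 0.53, and 303 of 325 pairs were above 0. The median was 0.48 within the regulatory particle, 0.60 within the core particle and 0.51 between them. These values describe 10 arrays, 2 per genotype, and the scaling of an array moves all its genes together. Pairs of other genes were not correlated in this way, so the values have no background beside them. Each gene was also set against the mean of the other subunits. Prosbeta7 followed that mean most closely (r = 0.92), Prosbeta5 came next (r = 0.89), and Prosalpha6 (r = 0.049), Rpt5 (r = 0.31) and Rpn6 (r = 0.40) followed it least. Of 8671 genes that are not members, the 5 with the highest r to the subunit mean were COX5A, a cytochrome c oxidase subunit gene (0.95), ND-ASHI, a complex I subunit gene (0.94), CG31278 (0.93), blp (0.93) and mRpL13, a mitochondrial ribosomal protein gene (0.92). Their SDs over the arrays were 0.062 to 0.12 log2 units. These 5 were picked as the highest of 8671 values, and how high such a maximum would lie without a relation was not examined. The subunit mean itself was 12.344 on replicate 2 of Delta with COX7a RNAi and 12.225 to 12.294 on the other arrays.

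Knockdown of COX7a alone left the subunit genes close to the control. Rpn2, a scaffold subunit of the base, read 12.45 and 12.44 log2 units in GFP and 12.54 and 12.47 with COX7a RNAi. Prosbeta5, which carries the chymotrypsin-like site, read 12.65 and 12.56 in GFP and 12.63 and 12.60 with COX7a RNAi, so its arrays overlapped. Prosbeta2, which carries the trypsin-like site, read 12.81 and 12.77 against 12.77 and 12.76. The log2 fold changes ± standard error (SE) from limma were 0.06 ± 0.04 for Rpn2, 0.014 ± 0.057 for Prosbeta5 and -0.024 ± 0.056 for Prosbeta2, with 2 arrays per genotype. The highest members were the paralog Rpt3R (0.18 ± 0.09), the ATPase gene Rpt4 (0.07 ± 0.07) and Prosbeta3 (0.07 ± 0.05). The lowest were the paralog Rpn13R (-0.09 ± 0.14), Prosbeta4 (-0.09 ± 0.05) and the paralog Prosbeta2R1 (-0.07 ± 0.11). The smallest limma adjusted p of a member was 0.384.

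The 95% intervals of the fold change were computed gene by gene, so they are not a joint bound over the 26 subunits. They cover the spread between replicates only, and neither signal saturation nor cells outside the ey-Gal4 domain. For COX7a RNAi against GFP they reached from 0.876-fold (Prosbeta4) to 1.17-fold (Rpt4) over the 26 subunits. All 26 intervals lay within 1.2-fold in either direction, a bound chosen after the values were seen, as did 43.9% of those of all genes. With each array centred on its median 25 did, and the lowest bound was 0.826-fold. The width of an interval follows the SE, whose median was 0.045 for the subunits and 0.084 for all genes. The share among genes of like signal was not counted in any comparison. Arrays of 5 subunits did not overlap in the higher direction and of 4 in the lower, beside 24.6% and 22.9% of all genes. Regulatory particle genes had a median of 0.038 as deposited and of -0.0072 with each array centred on its median. Core particle genes had a median of -0.018 as deposited and of -0.063 with centring. The median of all genes was 0.0027. The subunit median was 0.0094 as deposited and -0.036 with centring, which moves all genes of an array alike. Relative to the median of all genes it was 0.0067 under both scalings, -0.036 without replicate 1 of COX7a RNAi and 0.031 without replicate 2, so its direction depended on which array was kept.

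In discs with Delta, adding the hairpin against COX7a gave the same small range. Rpn11, the lid enzyme that cleaves ubiquitin chains from substrates, read 12.37 and 12.40 in Delta and 12.42 and 12.54 in Delta with COX7a RNAi. The arrays did not overlap, which was so for 3 of 26 subunits in the higher and 0 in the lower direction, beside 20.4% and 25% of all genes. Its log2 fold change was 0.09 ± 0.04 (limma adjusted p = 0.346). Rpn12, another lid gene, stood at 0.07 ± 0.06 and Rpn2 at 0.06 ± 0.04. The lowest members were the paralogs Prosbeta2R1 (-0.15 ± 0.11), Prosalpha4T2 (-0.13 ± 0.10) and Rpn13R (-0.08 ± 0.14). The median of the subunits was -0.00033 as deposited and 0.0042 with each array centred on its median, and that of all genes was -0.011. Intervals ran from 0.864-fold (Rpt4) to 1.15-fold (Rpn12). With replicate 2 of Delta with COX7a RNAi left out the subunit median was -0.040, and with replicate 1 left out it was 0.045, so its direction depended on which array was kept.

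The direct test of the interaction between Delta and COX7a RNAi called no member by limma, and 0 had an unadjusted p under 0.05. Prosbeta4, a beta ring gene without a proteolytic site, had the highest value (0.12 ± 0.06, adjusted p = 0.55). It read 12.53 and 12.44 in GFP, 12.42 and 12.38 with COX7a RNAi, 12.50 and 12.48 in Delta, and 12.48 and 12.58 with both. Rpn13, a ubiquitin receptor of the base, followed at 0.08 ± 0.06, and Prosbeta2 at 0.08 ± 0.08. Rpt3R (-0.25 ± 0.13), Prosalpha4T2 (-0.16 ± 0.14) and Rpt4 (-0.14 ± 0.09) had the lowest values. Of the 26 intervals 23 lay within 1.2-fold, beside 23.3% of those of all genes, and 12 did with each array centred on its median. The exceptions as deposited were Rpt4, Rpt2 and Prosbeta4, and the interval of Rpt4 reached down to 0.787-fold. COX7A itself fell to 0.139-fold with the hairpin alone and to 0.216-fold where the hairpin was added to Delta. Its own interaction was 0.63 ± 0.13 and was not called (limma adjusted p = 0.0878). A weaker knockdown in discs with Delta was thus not established. Without replicate 1 of Delta with COX7a RNAi the interaction of COX7A was 0.79. Whether a difference in knockdown bears on the values of the members was not tested.

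**Figure D3:**
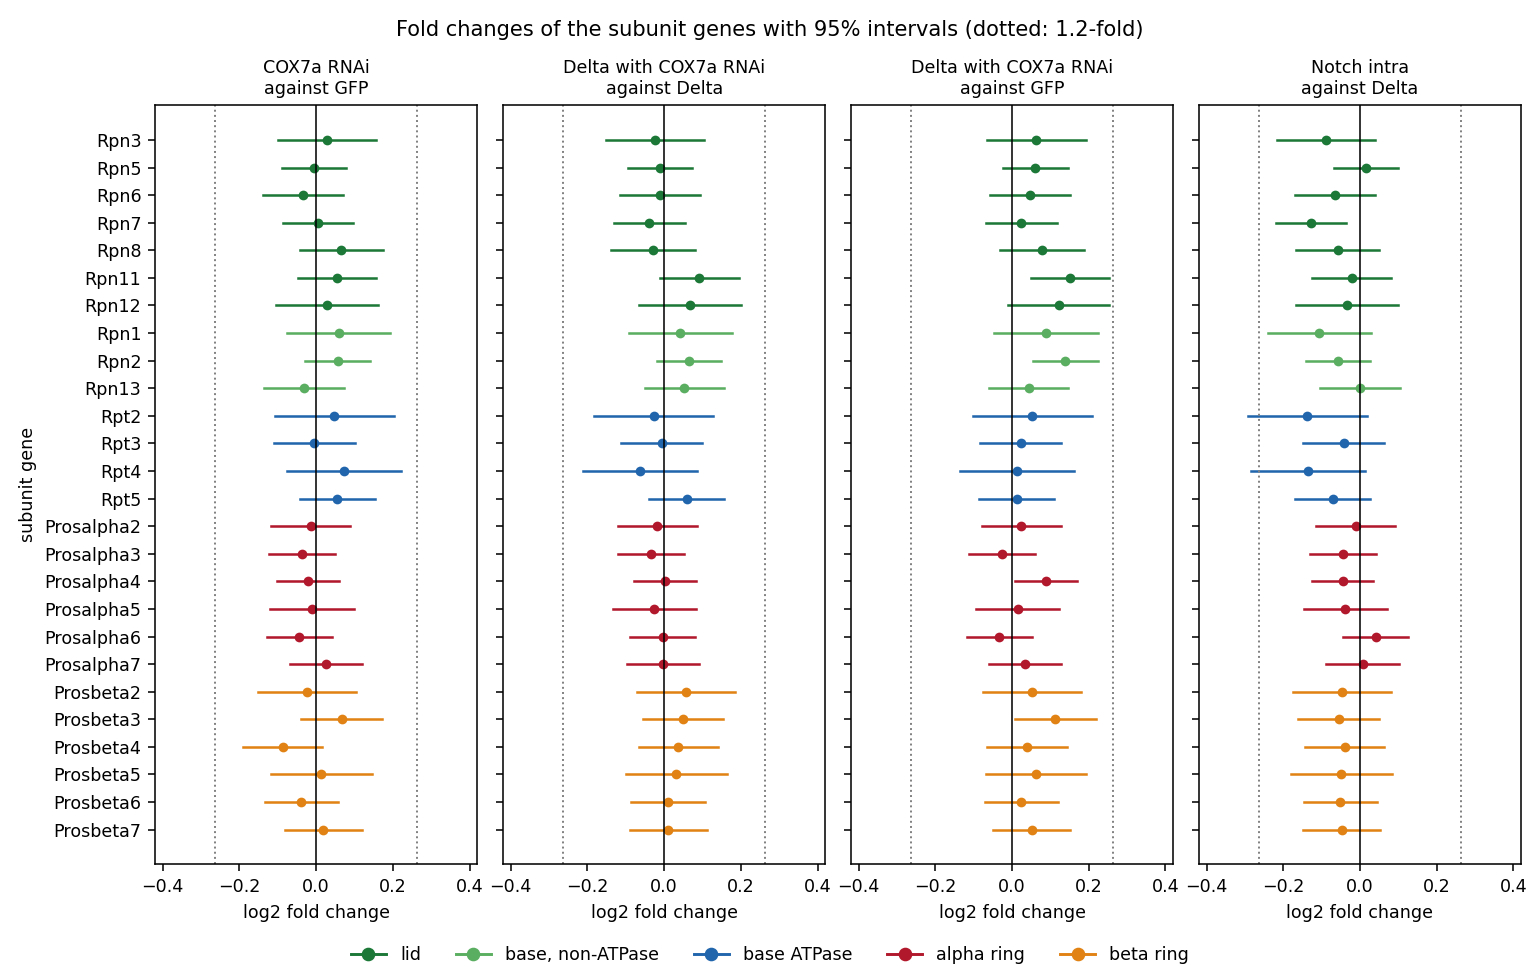
Log2 fold changes (points) and 95% intervals from limma (lines) of the 26 subunit genes in 4 comparisons, coloured by place in the complex, with dotted lines at 1.2-fold. All intervals lie inside the dotted lines except those of Rpt2 and Rpt4 in Notch intra against Delta. With each array centred on its median the subunit medians of that comparison, of COX7a RNAi against GFP and of Delta with COX7a RNAi against Delta change sign.

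Among the 26 general subunits, the lowest adjusted p came from discs with Delta and COX7a RNAi against GFP. Rpn2 read 12.45 and 12.44 in GFP and 12.59 and 12.58 with both transgenes, a gap larger than the spread in either group. Its log2 fold change was 0.14 ± 0.04 (limma adjusted p = 0.0602). Rpn11 read 12.34 and 12.31 in GFP and 12.42 and 12.54 with both transgenes (0.15 ± 0.04, adjusted p = 0.0833). Rpn2 was called with the floor at the 60th percentile (adjusted p = 0.0456) and without either COX7a RNAi array (0.0436 and 0.0434). Without replicate 1 of Delta with COX7a RNAi, Rpn11, Rpn12 and Prosbeta3 were called instead, with adjusted p of 0.0234, 0.0484 and 0.0457. Among the paralogs, Rpn13R (-0.15 ± 0.14), Prosalpha4T2 (-0.14 ± 0.10) and Prosbeta2R1 (-0.07 ± 0.11) were the lowest members by value.

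In this comparison 24 of 26 subunits had values above 0 as deposited and 17 with each array centred on its median, beside 52.8% and 44.7% of all genes. The 14 regulatory particle genes were all among the 24, and 10 of them were above 0 with centring. The subunit median was 0.049 as deposited and 0.022 with centring, and that of all genes 0.0085 as deposited. Arrays of 10 subunits did not overlap in the higher direction and of 0 in the lower, beside 29.1% and 24.5% of all genes. With centring these counts were 4 and 2, and the shares of all genes with centring were not counted. The counts above 0 rest on 1 array. Without replicate 2 of Delta with COX7a RNAi 13 of 26 subunits were above 0 and their median was 0.0011. Intervals reached from 0.911-fold (Rpt4) to 1.19-fold (Rpn12), and all 26 lay within 1.2-fold, beside 39.1% of those of all genes. With centring, and also after a second quantile normalization, 25 did, and the highest bound was 1.21-fold.

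Delta alone against GFP gave values above 0 for 22 of 26 subunits as deposited and for 18 with each array centred on its median, beside 58.4% and 46.7% of all genes. Rpn8, the lid partner of Rpn11, read 11.72 and 11.74 in GFP and 11.86 and 11.81 in Delta (0.11 ± 0.05, limma adjusted p = 0.351). Prosalpha4, an alpha ring gene, read 12.36 and 12.34 in GFP and 12.42 and 12.46 in Delta (0.09 ± 0.04, adjusted p = 0.313), and it was the 1 member with an unadjusted p under 0.05. The paralog Rpt3R stood at 0.15 ± 0.09. Rpn13R (-0.075 ± 0.14), Rpt5 (-0.05 ± 0.04) and Prosalpha6 (-0.03 ± 0.04) had the lowest. All 7 lid genes were above 0 as deposited, from 0.055 (Rpn12) to 0.11 (Rpn8), and also, with a lower median (0.033 with centring, 0.057 after a second quantile normalization, beside 0.063), under both other scalings. Arrays of 15 subunits did not overlap in the higher direction and of 2 in the lower, beside 32.5% and 19.9% of all genes. With each array centred on its median these counts were 3 and 2, and the shares of all genes with centring were not counted. The subunit median was 0.044 as deposited and 0.013 with centring, which moves all genes of an array alike. It stood above the median of all genes by 0.022 as deposited, by 0.034 after a second quantile normalization, and by 0.014 without Delta replicate 2 or without GFP replicate 2. Intervals ran from 0.904-fold (Rpt5) to 1.18-fold (Rpt2).

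Notch intra against GFP, the comparison with the most calls over all genes, called 0 members by limma, with 2 at an unadjusted p under 0.05. Rpt5, an ATPase of the base, read 12.26 and 12.24 in GFP and 12.14 and 12.13 in Notch intra, with no overlap (-0.12 ± 0.04, adjusted p = 0.114). Rpn5, a lid gene, read 12.65 and 12.61 in GFP and 12.72 and 12.70 in Notch intra (0.09 ± 0.04, adjusted p = 0.161). Rpt5 was called when only these 2 genotypes were fitted (adjusted p = 0.0402) and without COX7a RNAi replicate 1 or 2 (0.0497 and 0.0496). Among the paralogs, Prosalpha4T2 stood at 0.12 ± 0.10, Rpt3R at -0.19 ± 0.09 and Rpn13R at -0.12 ± 0.14. All 4 ATPase genes had values below 0 as deposited, with a median of -0.059, and 1 of 4 with each array centred on its median. Relative to the median of all genes the ATPase median was -0.087 under both of these scalings and -0.060 after a second quantile normalization. On that relative scale the alpha ring median was -0.0067 as deposited and -0.011 after a second quantile normalization. The beta ring median was -0.0554 and -0.0565 in the same order. It was -0.0081 and 0.013 for the lid, and -0.038 and -0.0070 for the base subunits that are not ATPases. Arrays of 6 subunits did not overlap in the higher direction and of 5 in the lower, beside 36.9% and 26.5% of all genes. With centring, which raised the median of all genes by 0.0738, these counts were 18 and 1. Values above 0 with centring were found for 25 of the 26 subunits and 73.7% of all genes. The shares of all genes without overlap were not counted with centring, so the counts of 18 and 1 have no background. Intervals ran from 0.861-fold (Rpt5) to 1.13-fold (Rpn5). The subunit median was -0.0075 as deposited, 0.0029 after a second quantile normalization and 0.066 with centring, which moves all genes of an array alike. Relative to the median of all genes it was -0.036 as deposited and with centring, -0.025 after a second quantile normalization, and between -0.018 (without Notch intra replicate 1) and -0.044 (without Notch intra replicate 2) with 1 array left out.

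Between the 2 ways of raising Notch signalling, Notch intra against Delta, Rpt3R showed the largest difference of any member. It read 7.59 and 7.83 in Delta and 7.39 and 7.34 in Notch intra (-0.34 ± 0.09, 2 arrays each, limma adjusted p = 0.052). Rpt3R passed the limma test with the floor at the 60th percentile (adjusted p = 0.0407), without the intensity trend (0.0479) and with the mean of all probe sets per gene (0.0466). Its value stayed at -0.34 in these settings, because no member has more than 1 probe set. They changed the spread estimate or the other genes tested, and are not separate measurements of Rpt3R. Without Delta replicate 1 the value was -0.47. Rpn7, a lid gene, read 11.69 and 11.73 in Delta and 11.57 and 11.59 in Notch intra (-0.13 ± 0.04, adjusted p = 0.0882). The ATPase genes Rpt2 (-0.14 ± 0.07) and Rpt4 (-0.14 ± 0.06) were the next lowest by value, and Prosalpha4T2 (0.13 ± 0.10) and Prosalpha6 (0.04 ± 0.04) among the highest.

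As deposited, 4 of 26 subunits were above 0 in that comparison, beside 51.5% of all genes, and arrays of 17 did not overlap in the lower and of 1 in the higher direction, beside 30% and 28.8% of all genes. With each array centred on its median, which raised the median of all genes by 0.105, 22 of 26 were above 0, beside 75% of all genes. With centring 13 did not overlap in the higher direction and 0 in the lower, and the shares of all genes were not counted. Relative to the median of all genes the subunit median was -0.053 under both of these scalings and -0.060 after a second quantile normalization. Of the 26 intervals 24 lay within 1.2-fold, beside 38.7% of those of all genes, with bounds from 0.816-fold (Rpt2) to 1.09-fold (Prosalpha6). The exceptions were Rpt2 and Rpt4.

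The 14 duplicated paralogs differed from the general subunits in being mostly at the floor. Prosalpha3T, Prosalpha4T1, Prosbeta2R2, Prosbeta4R1, Prosbeta4R2, Prosbeta5R1, Prosbeta5R2 and Rpt4R lay under it on all 10 arrays, with values between 3.09 and 4.65 log2 units. Rpn12R lay above it on 1 array. Prosalpha6T lay above it on 3 arrays, 1 each of Delta, Delta with COX7a RNAi and Notch intra, and so entered the test, but its mean lay under it in all 5 genotypes (4.42 to 4.63), so no fold change is given although it ranked among the 3 highest members in 4 comparisons. Rpt3R, a copy of an ATPase gene, was above the floor on all arrays, between 7.34 and 7.83. So were Rpn13R (6.03 to 6.43), Prosbeta2R1 (5.29 to 5.64) and Prosalpha4T2 (4.70 to 5.03). The levels of different genes cannot be compared because each has its own probes, and whether a paralog's probes also bind transcripts of the general subunit was not examined.

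**Figure D4:**
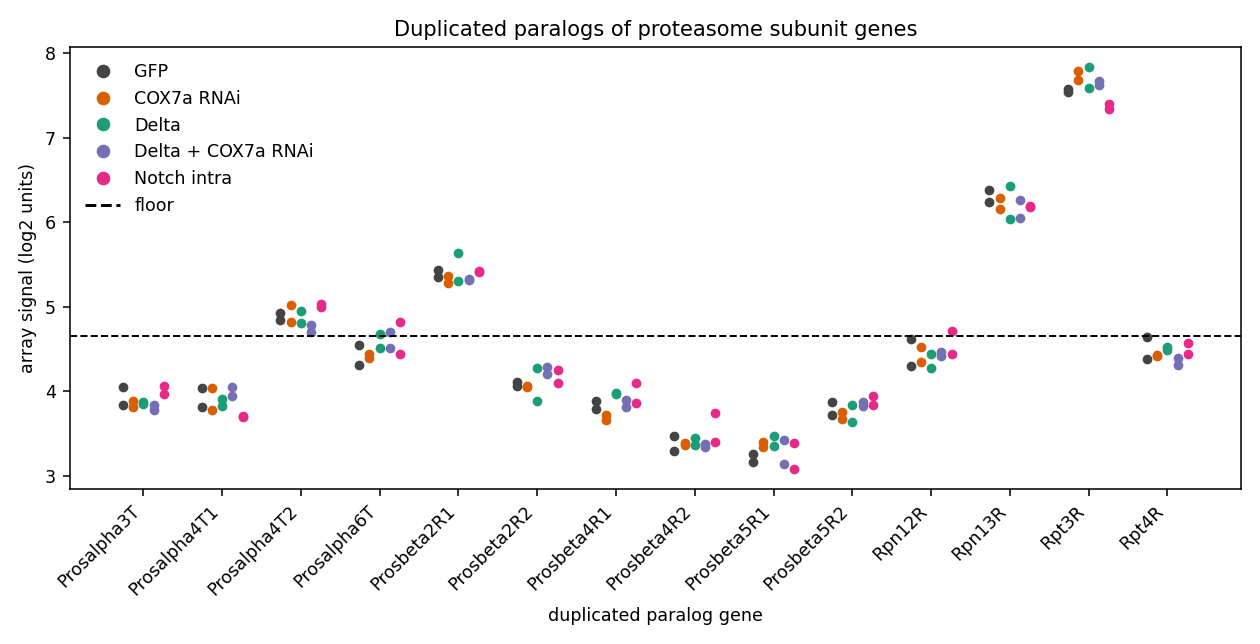
Array signal (log2 units) of the 14 duplicated paralogs on each of the 10 arrays, coloured by genotype, with the floor of 4.66 log2 units dashed. Rpt3R, Rpn13R, Prosbeta2R1 and Prosalpha4T2 lie above the floor on every array, and Rpt3R is lowest on the 2 Notch intra arrays.

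Of the other genes listed for the proteasome pathway, 3 were called in at least 1 comparison. This list of 22 genes, which also holds genes of ubiquitin and of autophagy, had 20 with a single-gene probe set, all past the floor. For COX7a RNAi against GFP 1 rose and 1 fell, for Delta with COX7a RNAi against Delta 1 rose and 1 fell, and for the latter discs against GFP 1 rose and 2 fell. For Delta and for Notch intra against GFP 1 fell in each. Over all genes the called shares in these 5 comparisons were 4.53%, 3.75%, 7.56%, 2.38% and 13.1%, and the counts of 1 to 3 of 20 genes are given as a description of the list. For Notch intra against Delta and for the interaction limma called 0, with 2 and 1 at an unadjusted p under 0.05. All of these calls came from Pomp, CG8858 and ref(2)P. The medians of the list lay between -0.015 and 0.032 in the 7 comparisons. Among the others, PI31, which encodes a regulator of the proteasome, was called for COX7a RNAi against GFP without COX7a RNAi replicate 1 (0.29 ± 0.05, adjusted p = 0.0235) and not with all arrays (adjusted p = 0.0739).

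Pomp encodes the maturation factor that helps to assemble the core particle. It read 12.24 and 12.21 in GFP and 12.13 and 12.15 with COX7a RNAi. In Delta it read 11.75 and 11.80, in Delta with COX7a RNAi 11.59 and 11.70, and in Notch intra 11.70 and 11.59. The 3 genotypes with Delta or Notch intra were thus below both others on every array. Pomp fell by 0.45 ± 0.05 on the log2 scale in Delta (limma adjusted p = 0.00302), by 0.58 ± 0.05 in Delta with COX7a RNAi (adjusted p = 0.000612) and by 0.58 ± 0.05 in Notch intra (adjusted p = 0.000227), each against GFP, comparisons that share the GFP arrays. For COX7a RNAi alone the value was -0.09 ± 0.05 (adjusted p = 0.47). The fall was 0.733-fold in Delta, with an interval of 0.676 to 0.796, while the core particle genes had a median log2 fold change of 0.034 in the same comparison.

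CG8858 and ref(2)P followed the hairpin. CG8858, for which no role is annotated in the gene table, read 10.15 and 10.12 in GFP, 10.11 and 10.07 in Delta, and 10.14 and 10.04 in Notch intra. With COX7a RNAi it read 9.31 and 9.36, and with Delta and COX7a RNAi 9.30 and 9.31, below all other arrays. CG8858 fell by 0.80 ± 0.05 on the log2 scale with the hairpin alone (limma adjusted p = 0.000226). It fell by 0.79 ± 0.05 where the hairpin was added to Delta (adjusted p = 0.000175). The interaction was 0.0084 ± 0.070, and all 18 alternatives kept both calls.

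The gene ref(2)P encodes the fly counterpart of p62, which carries ubiquitinated cargo to autophagy. It read 9.61 and 9.52 in GFP and 9.57 and 9.49 in Delta. With COX7a RNAi it read 9.95 and 10.10, and with both transgenes 10.13 and 9.84, above all other arrays, including Notch intra at 9.70 and 9.65. With the hairpin alone it rose by 0.46 ± 0.09 (limma adjusted p = 0.0337), and where the hairpin was added to Delta by 0.46 ± 0.09 (adjusted p = 0.0393). In Delta with COX7a RNAi compared with GFP it rose by 0.42 ± 0.09 (adjusted p = 0.0339). Each of these calls was lost under 9 of 18 alternatives, where the adjusted p reached 0.194, 0.189 and 0.212. All were lost without the intensity trend, when only the genotypes compared were fitted, and when any one of the GFP, Delta or Notch intra arrays was left out. The first was also lost without COX7a RNAi replicate 2 (0.39 to 0.54 over all alternatives), and the others without Delta with COX7a RNAi replicate 1 (0.31 to 0.60 and 0.28 to 0.57).

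**Figure D5:**
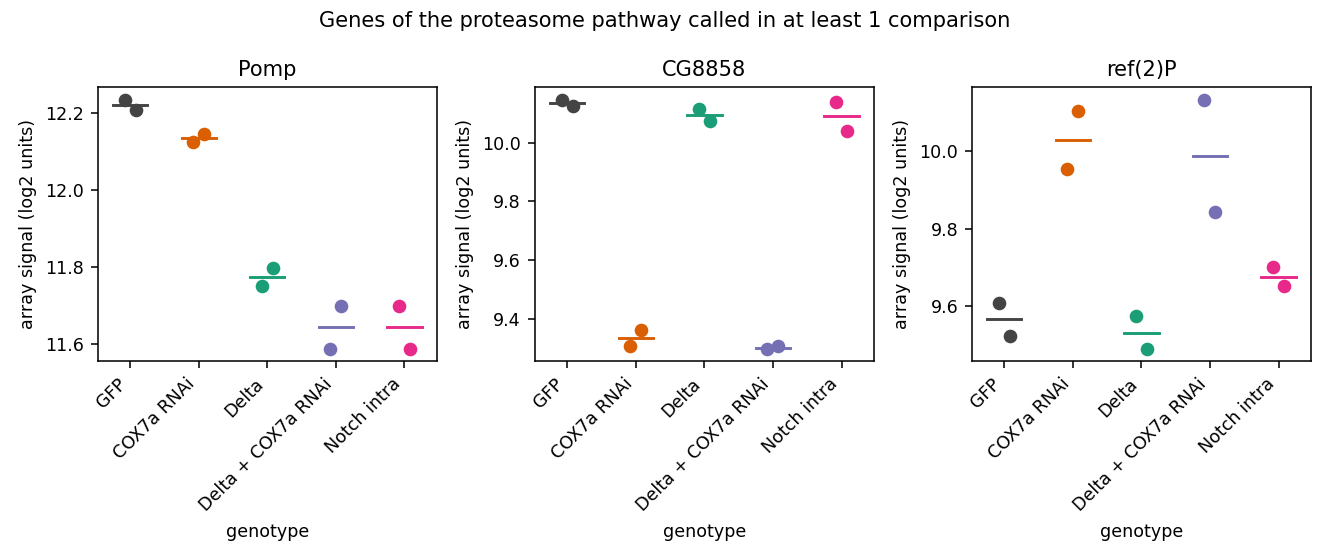
Array signal (log2 units) of Pomp, CG8858 and ref(2)P in each genotype, with 1 point per array and a line at the mean, on axes that do not start at 0. Pomp is lower in the 3 genotypes with Delta or Notch intra, CG8858 is lower and ref(2)P higher in both genotypes with COX7a RNAi.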

How the data were processed

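Per the labels' protocols, 50 ng of total RNA per sample was amplified with a 3' IVT kit for Affymetrix arrays. The deposited values are log2 signals, with each array giving 1 value for a probe set. The authors used, per the submitters' processing notes, RMA, Affymetrix Expression Console, and version 3.0.0.466 of Transcriptome Analysis Console, with no role given for each. RMA makes array distributions alike, so a shift common to all genes could not be seen. No genome build is given in the sources used here.

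Of 18952 probe sets, 183 were controls, 13647 had 1 gene symbol in the platform annotation, which can be old, 402 had several and 4720 none. The brightest single-gene probe set stood for its gene. Genes exceeding the floor (40th percentile of all values) on 2 or more arrays entered limma 3.58.1 (R 4.3.3), fitted to all 10 arrays with genotype means, eBayes and an intensity trend, two-sided, leaving 5 residual degrees of freedom. Only 2 arrays per genotype limit the precision, and p-values lean on the pooled spread. The script was tested on simulated data.

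Members, lists and the rule for named genes were chosen with earlier results of these data known. Per comparison the rule named members called or else the 3 highest and 3 lowest, catalytic subunits, paralogs, COX7A and Delta, and up to 3 called pathway genes. Other subunits and PI31 were described after their values were seen. Alternatives were no filter, a floor at the 60th percentile, no trend, the replicate number as a block, 2 other scalings, the mean of a gene's probe sets, only the genotypes compared, and each array left out.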

Additional observations from a re-analysis of the deposited data

How the results depend on the processing

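The counts of members called stayed at 0 under all 18 alternatives for COX7a RNAi against GFP, Delta against GFP, Delta with COX7a RNAi against Delta and the interaction. In the other comparisons a count of 0 changed as follows, and the cause was not tested. The floor at the 60th percentile called 1 member (Rpn2) for Delta with COX7a RNAi against GFP and 1 (Rpt3R) for Notch intra against Delta, with fewer genes tested. In the latter comparison no intensity trend called 1 (Rpt3R), as did the mean of all probe sets per gene, which leaves the values of Rpt3R themselves unchanged. Fitting only the genotypes compared called 1 (Rpt5) for Notch intra against GFP. Leaving out each array in turn gave 0 to 1 calls for Notch intra against GFP, 0 to 3 for Delta with COX7a RNAi against GFP and 0 to 1 for Notch intra against Delta. Deviations of same-numbered replicates correlated at -0.225 to 0.376 over 10 pairs of genotypes, over 0.1 in 2, so the numbers were not taken to pair the samples. The replicate block called 0 members in every comparison and ended no call of Pomp, CG8858 or ref(2)P. Of the calls of Pomp, CG8858, COX7A and Delta, 0 were lost under any alternative. With arrays centred on their medians, calls over all genes for Notch intra against GFP were 824 higher and 452 lower, beside 525 and 619 as deposited. For Notch intra against Delta they were 657 and 352 with centring and 390 and 462 after a second quantile normalization, beside 283 and 548. For the interaction they were 29 and 22 with centring, beside 23 and 27. The table used holds no probe-level signals or detection calls, so signal over background and saturation were not judged.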
